A study of Mus musculus with 12 samples.

Results

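The genes described here are the 3 TGF-beta ligands (Tgfb1, Tgfb2 and Tgfb3), the 4 latent TGF-beta binding proteins (Ltbp1 to Ltbp4) and the 3 TGF-beta receptors (Tgfbr1, Tgfbr2 and Tgfbr3), 10 of the 22180 genes measured. They were chosen by name as a family, each read from the only probe set that carried exactly its symbol in the platform annotation. Primary aortic smooth muscle cells from C57BL/6J mice, an inbred strain, gave the RNA, at passage 3 to 4 and grown in DMEM that held 10% FCS (fetal calf serum). Cells of 6 samples were kept at 0.3 g/l glucose (1.7 mM) and cells of 6 samples at 4.5 g/l (25 mM). The series text gives 14 days of culture and the sample labels give 1 week. Each sample was hybridised to an Affymetrix mouse gene array, and all values below are log2 values after RMA, so a difference of 1 is a 2-fold change. The labels do not say whether the 6 samples of a group came from separate cultures or animals, so the p-values speak only of the scatter among these arrays, and that scatter may be technical.

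TGF-beta is secreted in a latent form, in which the growth factor stays wrapped in its own propeptide. The propeptide is linked to a latent TGF-beta binding protein, which ties the complex to fibrillin and fibronectin in the matrix until integrins or proteases release the ligand. The freed ligand brings together the kinase receptors encoded by Tgfbr1 and Tgfbr2, which phosphorylate Smad2 and Smad3, and in the aortic wall this pathway is known for its part in smooth muscle differentiation, matrix production and aneurysm.

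At 4.5 g/l glucose Tgfb3 was higher by 2.28 log2 units, Ltbp2 by 0.94 and Ltbp1 by 0.77, and none of the other 7 genes passed the test. These were tested with limma over all 22180 genes, with a threshold of 0.05 on the Benjamini-Hochberg adjusted p. Of the 10 genes 3 rose and 0 fell by limma, where 7.01% of all genes rose and 8.52% fell, and 0 were lower at an unadjusted p under 0.05 or by the exact permutation test. For Tgfb3 and Ltbp1 every 4.5 g/l array lay above every 0.3 g/l array, which held for 3.49% of all genes, and for 0 of the 10 every array lay below, which held for 2.9%. The median log2 difference over the 10 genes was 0.11, and it was -0.01 over all genes.

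Replicate 4 of the 0.3 g/l group stood apart from the other 0.3 g/l arrays. On the first principal component of all genes it lay at 17.2, while the rest of its group ran from -30.2 to -24.4 and the 4.5 g/l group from 12.5 to 26.2. Its closest array was one of the 4.5 g/l group (r = 0.992 across genes, against 0.987 within its own group). Without it, 5 of the 10 genes rose and 1 fell, where 10.3% of all genes rose and 13.6% fell. Within replicates 1 to 3 of both groups 3 rose and 0 fell (5.92% and 7.16% of all genes). Within replicates 4 to 6 the counts by limma were 0 and 0 (0.0947% and 0.0406% of all genes), and 4 rose and 1 fell there when 0.3 g/l replicate 4 was left out (6.55% and 8.94% of all genes). Within the 4.5 g/l group, replicates 1 to 3 and 4 to 6 lay on opposite sides of the second component, from -17.9 to -12.0 and from 12.6 to 16.1. The labels name no batch. All 10 genes are therefore given with all 12 arrays and, where the call or the size depends on it, without 0.3 g/l replicate 4.

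**Figure D1:**
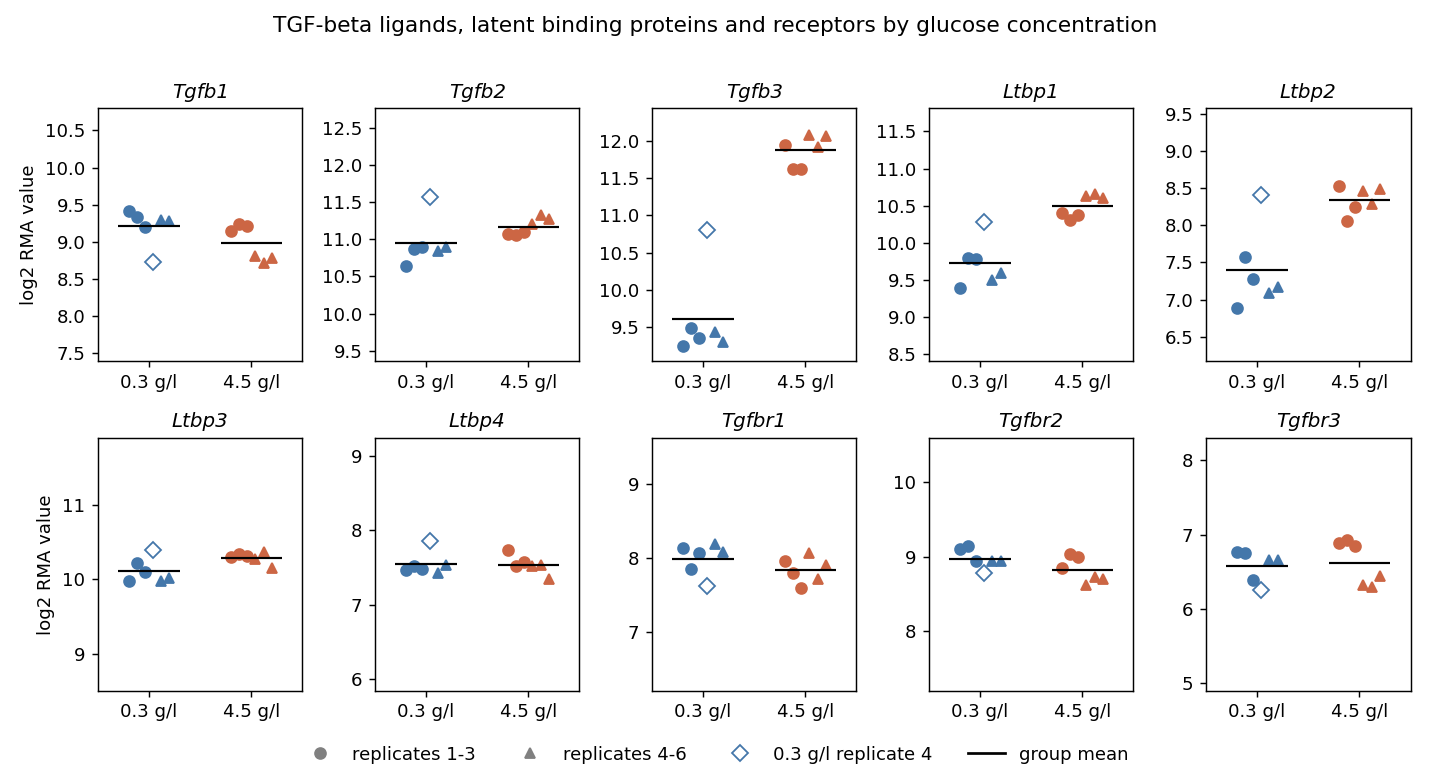
Log2 RMA value (vertical axis, a span of equal size in every panel) of the 10 genes on each array at 0.3 and 4.5 g/l glucose (horizontal axis, n = 6 a group). Circles are replicates 1 to 3, triangles replicates 4 to 6, the open diamond is 0.3 g/l replicate 4 and bars are group means. Tgfb3 lies between 11.62 and 12.08 at 4.5 g/l, above all 0.3 g/l arrays, the highest of which is replicate 4 at 10.80.

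The ligands came first. Tgfb3, the isoform best known from palate and lung development, had values of 9.24, 9.39 and 10.80 (lowest, median and highest of 6 arrays) at 0.3 g/l and of 11.62, 11.93 and 12.08 at 4.5 g/l. The groups did not overlap, and the only 0.3 g/l array above 9.48 was replicate 4, which still lay below the lowest 4.5 g/l array. The mean rose from 9.60 ± 0.59 to 11.88 ± 0.20 (SD, n = 6), a 4.84-fold increase (log2 difference 2.28 ± 0.22 SE, 95% interval 1.80 to 2.75; limma adjusted p = 4.73e-05). Its difference was the 11th largest rise of all 22180 genes. Without 0.3 g/l replicate 4 it was 2.52 ± 0.10 (SE), within replicates 1 to 3 it was 2.38 and within replicates 4 to 6 it was 2.18. In that last set of 6 arrays, which holds 0.3 g/l replicate 4, it did not pass (limma adjusted p = 0.0791), and it was 2.65 when that array was left out (limma adjusted p = 0.000141).

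Tgfb1, the isoform most widely expressed in the vessel wall, had values of 8.73, 9.29 and 9.42 at 0.3 g/l and of 8.71, 8.97 and 9.23 at 4.5 g/l. The groups overlapped. Low values were found on replicate 4 of the 0.3 g/l group at 8.73 and on replicates 4 to 6 of the 4.5 g/l group at 8.71 to 8.80, while 4.5 g/l replicates 1 to 3 lay at 9.14 to 9.23 and the other 0.3 g/l arrays at 9.20 to 9.42. The log2 difference of -0.23 ± 0.13 (SE, 95% interval -0.50 to 0.04) missed the threshold (limma adjusted p = 0.275). Without 0.3 g/l replicate 4 it fell by 0.32 ± 0.10 (limma adjusted p = 0.0385), but within replicates 1 to 3 the difference was -0.12 and missed it (limma adjusted p = 0.406). Within replicates 4 to 6 it was -0.34 and did not pass, and there it was -0.52 when 0.3 g/l replicate 4 was left out, which passed (limma adjusted p = 0.349 and 0.00850).

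Tgfb2, the isoform required for heart and outflow tract development, ran from 10.63 over a median of 10.88 to 11.57 at 0.3 g/l, and from 11.06 over 11.15 to 11.33 at 4.5 g/l. The highest of all 12 arrays was 0.3 g/l replicate 4 at 11.57, and the other 0.3 g/l arrays, at 10.63 to 10.89, all lay below the 4.5 g/l arrays. With 12 arrays the log2 difference was 0.22 ± 0.13 (SE, 95% interval -0.05 to 0.49) and did not pass (limma adjusted p = 0.293). Without 0.3 g/l replicate 4 it rose by 0.35 ± 0.07 (limma adjusted p = 0.00301), and within replicates 1 to 3 the difference of 0.28 missed the threshold (limma adjusted p = 0.0927).

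Whether the ligands moved by unequal amounts was tested on their log2 difference within each array, which leaves out any scaling of the whole array. Of 12 pairs of genes of the same role, 7 passed after adjustment over the 12 pairs (two-sided exact permutation test over 924 assignments, with a smallest possible p of 0.00216). Tgfb3 changed more than the others, at -2.05 ± 0.14 (SE) for Tgfb2 minus Tgfb3 and -2.50 ± 0.38 for Tgfb1 minus Tgfb3, each without overlap of the groups (exact permutation p = 0.00216, adjusted p = 0.00649). Tgfb1 and Tgfb2 parted by -0.45 ± 0.27 (Tgfb1 minus Tgfb2) and this pair did not pass (exact permutation adjusted p = 0.162). Without 0.3 g/l replicate 4 it was -0.67 and passed (exact permutation adjusted p = 0.0111).

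The genes most like each ligand were taken as those with the highest Pearson r of log2 values over the 12 arrays, among 14588 named genes outside the dimmest 25%. For Tgfb3 they were Myh11, the smooth muscle myosin heavy chain (r = 0.997), the actin-depolymerising factor Dstn (r = 0.996) and the smooth muscle gamma actin Actg2 (r = 0.996). Since the groups lie apart for Tgfb3, the r within each group of 6 arrays is given too. Within 4.5 g/l it was 0.967 for Myh11, 0.826 for Dstn and 0.906 for Actg2, and within 0.3 g/l, where replicate 4 stands apart, it was 0.986 to 0.991. For Tgfb1 the nearest were the interferon-induced membrane protein Ifitm3 (r = 0.981), the glutaminyl cyclase Qpct (0.980) and the lectin Clec2d (0.979), with 0.968 to 0.999 within 4.5 g/l. For Tgfb2 they were the collagen genes Col12a1 (r = 0.974) and Col2a1 (0.971) and the adenylyl cyclase Adcy6 (0.973), with 0.776 to 0.937 within 4.5 g/l. At 4.5 g/l Tgfb1 and its nearest genes lay lower on replicates 4 to 6 than on replicates 1 to 3, with Clec2d at 9.55 to 9.70 against 10.31 to 10.50. Tgfb2 and its nearest genes lay higher on replicates 4 to 6. For these ligands the r within 4.5 g/l therefore spans that split. All of these values of r come from the same arrays and share their scaling.

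Promoter windows of the family were looked up in RefSeq (GRCm38.p6). Entries were found for 8 of the 10 genes, in 12 windows, and Tgfb3 and Tgfbr3 have none in the table. The 250 bases before the start that the table lists for Tgfb1 and for Tgfb2 are shown here because these ligands are read beside each other above. Capitals mark matches, on either strand, to 6 motifs, namely TGACGTCA (the cAMP response element), TGAGTCA (the AP-1 element), CAGAC (the core of the Smad binding element), CACGTG (an E-box), TATAAA (the TATA box) and the CArG box of serum response factor.
Tgfb1 (chr7:25686752-25687001, plus strand): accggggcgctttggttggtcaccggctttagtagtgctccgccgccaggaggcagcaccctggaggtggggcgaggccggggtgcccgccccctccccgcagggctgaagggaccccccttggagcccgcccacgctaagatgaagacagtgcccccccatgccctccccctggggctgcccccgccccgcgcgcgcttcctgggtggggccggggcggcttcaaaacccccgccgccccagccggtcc
Tgfb2 (chr1:186705990-186706239, minus strand): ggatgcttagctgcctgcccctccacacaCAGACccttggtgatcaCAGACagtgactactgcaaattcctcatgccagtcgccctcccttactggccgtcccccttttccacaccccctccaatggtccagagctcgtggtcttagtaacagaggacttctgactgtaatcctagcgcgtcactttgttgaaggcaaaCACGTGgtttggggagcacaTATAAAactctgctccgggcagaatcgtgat
The Tgfb1 window holds none of the 6 motifs and 75.2% G or C, against a median of 52.4% over all 32851 windows. The Tgfb2 window has 53.6% G or C, a TATAAA 31 bases and a CACGTG 51 bases before the start, and CAGAC at 204 and 221 bases. TATAAA occurs in 12.4% of all windows of this length, CACGTG in 6.02% and CAGAC in 42.2%. The start listed for Tgfb2 lies inside the gene as RefSeq bounds it (chr1:186622787-186709697, minus strand), so the window is that of an internal start. A match is a run of letters and not a shown binding site.

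The latent binding proteins differed among themselves. Ltbp1, which binds the propeptide of all 3 ligands and fixes the latent complex to the matrix, had values of 9.40, 9.69 and 10.28 at 0.3 g/l and of 10.31, 10.50 and 10.65 at 4.5 g/l. The highest 0.3 g/l array, replicate 4 at 10.28, lay just under the lowest 4.5 g/l array at 10.31, and the other 0.3 g/l arrays stayed at or below 9.79. The mean rose from 9.73 ± 0.31 to 10.50 ± 0.15 (SD, n = 6), a 1.71-fold increase (log2 difference 0.77 ± 0.13 SE; limma adjusted p = 0.00141). It was 0.88 without 0.3 g/l replicate 4, 0.71 within replicates 1 to 3 and 0.83 within replicates 4 to 6, where it did not pass (limma adjusted p = 0.133; 1.08 and 0.000790 when 0.3 g/l replicate 4 was left out).

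Ltbp2, a member of the family that is known as a fibrillin-associated matrix protein and does not bind latent TGF-beta, had values of 6.89, 7.22 and 8.41 at 0.3 g/l and of 8.06, 8.37 and 8.52 at 4.5 g/l. Only 0.3 g/l replicate 4, at 8.41, reached the range of the 4.5 g/l arrays, and the others stayed at or below 7.58. The mean rose from 7.40 ± 0.54 to 8.34 ± 0.18 (SD, n = 6), a 1.92-fold increase (log2 difference 0.94 ± 0.20 SE; limma adjusted p = 0.00658), and the difference was 1.14 ± 0.12 without that array. In an exact permutation test over the 12 arrays, adjusted over all genes, Ltbp2 did not pass (adjusted p = 0.0652), nor did it within replicates 4 to 6 (0.86, limma adjusted p = 0.257; 1.29 and 0.000873 without 0.3 g/l replicate 4).

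Ltbp3, which is needed for the secretion of latent TGF-beta in bone, lay at 9.97, 10.06 and 10.40 at 0.3 g/l and at 10.15, 10.31 and 10.37 at 4.5 g/l. The highest of the 12 arrays was 0.3 g/l replicate 4. The log2 difference of 0.18 ± 0.08 (SE) did not pass (limma adjusted p = 0.155) and became 0.24 ± 0.06 without that array, which passed (limma adjusted p = 0.0140). Within replicates 1 to 3 it was 0.22, and within replicates 4 to 6 without that array 0.27. Neither passed (limma adjusted p = 0.142 and 0.116). Ltbp4, which takes part in elastic fibre assembly, lay between 7.42 and 7.86 at 0.3 g/l and between 7.35 and 7.73 at 4.5 g/l, again with 0.3 g/l replicate 4 as the highest array. Its difference of -0.01 ± 0.08 (SE, 95% interval -0.18 to 0.17) did not pass (limma adjusted p = 0.975), and the sign turned after quantile normalization or cyclic loess (0.02 under both).

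Set against each other within the array, Ltbp1 changed by 0.59 ± 0.10 (SE) more than Ltbp3 and by 0.78 ± 0.12 more than Ltbp4, without overlap of the groups (exact permutation adjusted p = 0.00649 for both). Ltbp2 exceeded Ltbp3 by 0.76 ± 0.18 and Ltbp4 by 0.95 ± 0.18 (exact permutation adjusted p = 0.0148 and 0.0104), with overlap. Ltbp3 exceeded Ltbp4 by 0.19 ± 0.05 (exact permutation adjusted p = 0.0148). Between Ltbp1 and Ltbp2 the difference in change was -0.17 ± 0.12 (Ltbp1 minus Ltbp2) and did not pass (exact permutation adjusted p = 0.200). Without 0.3 g/l replicate 4 it was -0.26 and passed (exact permutation adjusted p = 0.0202).

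Ltbp1 has a pair of windows in the RefSeq table, and the sources used here do not say which transcripts its probe set reads. They are shown with the window of Ltbp2 because these are the genes of the family with an entry that rose, in the same form as for the ligands.
Ltbp1 upstream window (chr17:75005279-75005528, plus strand): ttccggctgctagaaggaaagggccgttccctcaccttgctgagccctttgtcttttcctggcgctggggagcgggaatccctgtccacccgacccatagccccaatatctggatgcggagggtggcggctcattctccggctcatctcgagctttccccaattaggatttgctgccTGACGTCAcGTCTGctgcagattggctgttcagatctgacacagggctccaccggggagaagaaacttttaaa
Ltbp1 downstream window (chr17:75178531-75178780, plus strand): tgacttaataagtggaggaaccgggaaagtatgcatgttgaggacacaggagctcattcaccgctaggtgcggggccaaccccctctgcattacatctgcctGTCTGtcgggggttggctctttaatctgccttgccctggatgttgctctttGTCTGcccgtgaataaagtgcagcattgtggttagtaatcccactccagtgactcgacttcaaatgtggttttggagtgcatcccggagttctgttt
Ltbp2 (chr12:84876492-84876741, minus strand): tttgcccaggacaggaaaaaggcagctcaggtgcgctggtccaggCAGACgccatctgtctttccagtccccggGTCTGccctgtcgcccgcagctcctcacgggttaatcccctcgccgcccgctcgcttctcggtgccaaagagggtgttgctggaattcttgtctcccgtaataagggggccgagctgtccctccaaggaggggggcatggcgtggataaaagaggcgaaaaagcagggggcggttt
The upstream window of Ltbp1 holds a TGACGTCA 73 bases before the start, a motif present in 1.55% of all windows, and a CAGAC at 64 bases. The downstream window of Ltbp1 and the window of Ltbp2 each hold 2 copies of CAGAC and none of the other 5 motifs. As for Tgfb2, each start listed for Ltbp1 and Ltbp2 lies inside the gene as RefSeq bounds it (chr17:75005480-75392512 and chr12:84783212-84876558). The downstream start of Ltbp1 lies deep inside, and the other starts lie close to the edge. TGAGTCA and the CArG box, found in 4.46% and 1.47% of all windows, occur in none of the 12 windows of the family.

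**Figure D2:**
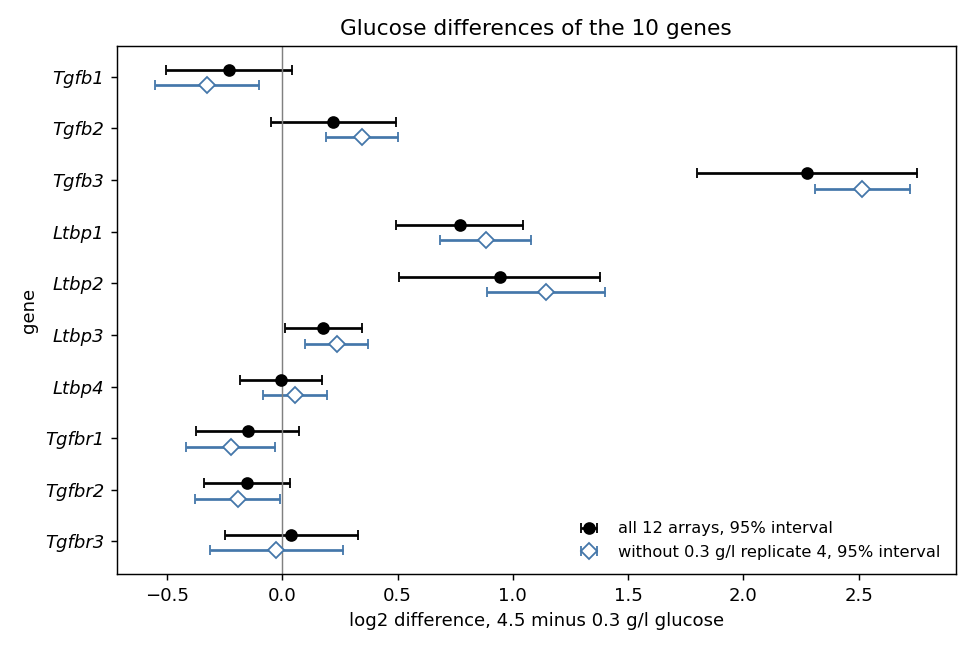
Log2 difference between 4.5 and 0.3 g/l glucose (horizontal axis) of the 10 genes (vertical axis), with the 95% interval of the fit, over all 12 arrays (filled circles) and without 0.3 g/l replicate 4 (open diamonds). The intervals, which are not adjusted for the number of genes, lie above 0 in both for Tgfb3, Ltbp1, Ltbp2 and Ltbp3, above 0 only without that array for Tgfb2 (-0.05 to 0.49 and 0.19 to 0.50), and below 0 only without it for Tgfb1, Tgfbr1 (-0.42 to -0.03) and Tgfbr2 (-0.38 to -0.01).

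The receptors did not pass in either direction. Tgfbr2, the ligand-binding type II kinase receptor, had values of 8.78, 8.94 and 9.14 at 0.3 g/l and of 8.62, 8.78 and 9.04 at 4.5 g/l (log2 difference -0.15 ± 0.09 SE, 95% interval -0.34 to 0.03; limma adjusted p = 0.285). For Tgfbr1, the type I kinase receptor that phosphorylates the Smads, the values were 7.63, 8.07 and 8.19 and then 7.60, 7.85 and 8.07 (log2 difference -0.15 ± 0.10 SE, 95% interval -0.37 to 0.07; limma adjusted p = 0.403). Both overlapped widely, and the intervals leave room for a fall of up to 0.34 and 0.37. Without 0.3 g/l replicate 4 the differences were -0.19 and -0.22 and did not pass (limma adjusted p = 0.128 and 0.0942).

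Tgfbr3 encodes betaglycan, a co-receptor without a kinase that presents the ligands and is best known for TGF-beta 2. It lay at 6.26, 6.66 and 6.77 at 0.3 g/l and at 6.29, 6.65 and 6.93 at 4.5 g/l (log2 difference 0.04 ± 0.13 SE, 95% interval -0.25 to 0.33; limma adjusted p = 0.900). Within the 4.5 g/l group it fell into separate levels, 6.85 to 6.93 in replicates 1 to 3 and 6.29 to 6.45 in replicates 4 to 6. Its difference was 0.25 within replicates 1 to 3 and -0.17 within replicates 4 to 6, and neither passed (limma adjusted p = 0.207 and 0.567). None of the 3 receptor pairs passed on the deposited values of the 12 arrays, and the smallest p was that of Tgfbr2 minus Tgfbr3 at -0.19 ± 0.08 (exact permutation adjusted p = 0.0682), a pair that passed after quantile normalization (-0.21, exact permutation adjusted p = 0.0357).

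Tgfb1 and Tgfbr2 were lowest on the same 4 arrays, replicate 4 of the 0.3 g/l group and replicates 4 to 6 of the 4.5 g/l group. Tgfbr3 was low there too, at 6.26 to 6.45, but also on 0.3 g/l replicate 3 at 6.40. Tgfbr2 lay at 8.78 and 8.62 to 8.72 there, and at 8.84 or above on all others. Markers of endothelial cells, which line the vessel, were low on those arrays too in the mean, though not each of them. The mean over all 12 endothelial markers was 6.99 and 6.74 to 6.79 there, and 7.38 to 7.54 on the other 8 arrays. On 0.3 g/l replicate 4 Cldn5 lay at 5.55, above the rest of its group at 5.00 to 5.44. Kdr at 5.51 and Robo4 at 5.14 lay there within the range of the other 0.3 g/l arrays. Each of the other endothelial markers had its lowest 0.3 g/l value on that array. All 12 of these markers, among them Cdh5 (11.10 ± 0.39 at 0.3 g/l and 10.51 ± 0.51 at 4.5 g/l, SD, n = 6) and Pecam1 (9.74 ± 0.08 and 9.49 ± 0.42), lay above 4.20, the level that bounds the dimmest 25% of genes. Between the glucose groups 1 of 12, Emcn, fell and 0 rose (8.52% and 7.01% of all genes), and 3 fell without 0.3 g/l replicate 4 (13.6% of all genes). The median log2 difference of the 12 was -0.26, and 0 of them had a difference above 0. The part of endothelial cells in the levels of Tgfb1, Tgfbr2 and Tgfbr3 was not tested. In RNA of a whole culture, fewer cells of a type and less RNA per cell cannot be told apart.

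The mean of the smooth muscle markers moved with Tgfb3. Of 12, 10 rose and 0 fell by limma (7.01% and 8.52% of all genes). The others, Des and Myocd, did not pass, with log2 differences of 0.11 and 0.20. Des had its lowest value of the 12 arrays on 0.3 g/l replicate 4, at 5.83. The 12 markers had a median log2 difference of 1.14. Their mean lay at 8.49 to 8.62 on the 0.3 g/l arrays other than replicate 4, at 9.53 on replicate 4 and at 10.02 to 10.26 on the 4.5 g/l arrays. Tgfb3 followed the same order of array sets, with 9.24 to 9.48, 10.80 and 11.62 to 12.08. Myh11 rose by 3.18 ± 0.26 (log2 difference ± SE, limma adjusted p = 1.22e-05) and Acta2, smooth muscle alpha actin, by 0.68 ± 0.10 (limma adjusted p = 0.000600). Of 9 measured markers of adventitial fibroblasts 1 rose and 1 fell (7.01% and 8.52% of all genes). Cd34, which endothelial cells also express, fell without overlap of the groups (log2 difference -1.02 ± 0.12 SE, limma adjusted p = 0.000195), and Col14a1, a fibril-associated collagen, rose by 0.37 ± 0.10 (limma adjusted p = 0.0193). Lum lay below 4.20 in both groups (3.56 ± 0.25 and 3.65 ± 0.49), and Pdgfra lay at 7.09 ± 0.21 and 7.45 ± 0.22 (SD, n = 6) and did not pass. Of 11 macrophage markers 0 rose and 0 fell by limma (7.01% and 8.52% of all genes). Among them Ptprc, Adgre1 and Itgam were in the dimmest 25% of genes, with Ptprc at 3.29 ± 0.11 and 3.36 ± 0.16 (SD, n = 6), while Cd68 lay at 7.33 ± 0.55 and 7.32 ± 0.29. Their part in the results was not tested.

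**Figure D3:**
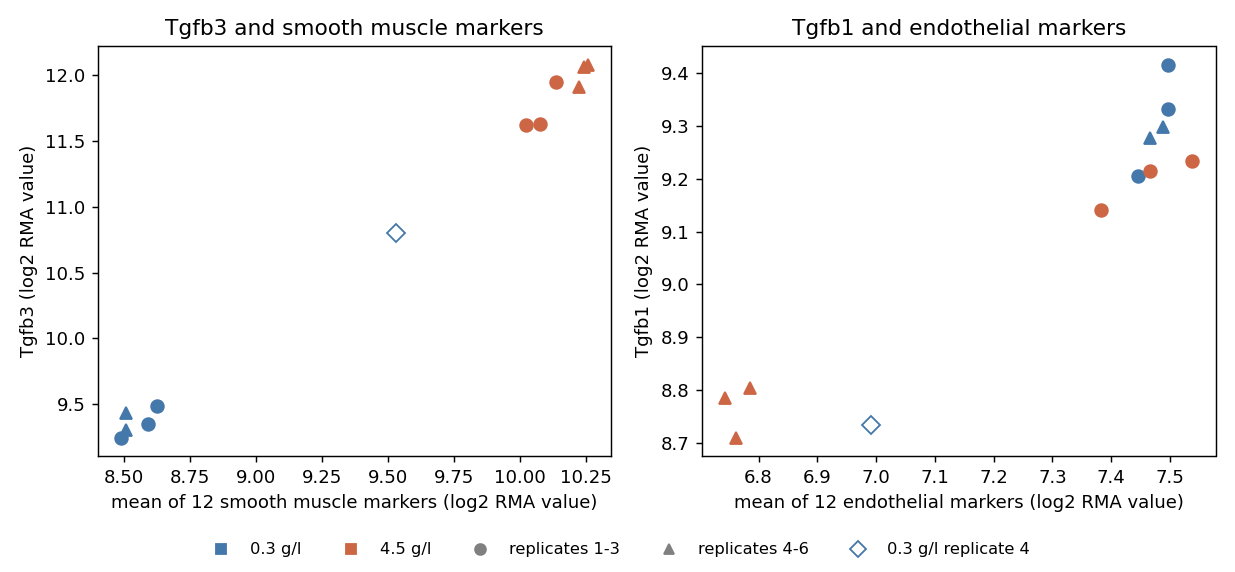
Left, Tgfb3 (vertical axis) against the mean of 12 smooth muscle markers (horizontal axis), and right, Tgfb1 against the mean of 12 endothelial markers, in log2 RMA values, with each point an array (blue 0.3 g/l, red 4.5 g/l; circles replicates 1 to 3, triangles replicates 4 to 6, the open diamond 0.3 g/l replicate 4). In the left plot 0.3 g/l replicate 4 lies between the groups at 10.80, and in the right plot it lies at 8.73 near 4.5 g/l replicates 4 to 6.

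Among the genes that hold or release the latent complex 8 rose and 1 fell, where 7.01% and 8.52% of all genes did. Of 20 measured genes for matrix anchors, integrins and proteases of latent TGF-beta, 16 had a difference above 0, with a median log2 difference of 0.21. Plau, the urokinase plasminogen activator, ran from 7.79 over a median of 7.90 to 8.90 at 0.3 g/l and from 9.15 over 9.45 to 9.63 at 4.5 g/l, without overlap (log2 difference 1.36 ± 0.17 SE; limma adjusted p = 0.000200). Its tissue-type relative Plat rose 1.59-fold, from at most 7.53 to at least 7.61, with 4.5 g/l replicates 1 to 3 at 8.20 to 8.35 and replicates 4 to 6 at 7.61 to 7.73. The integrin subunits Itgb3 and Itgb1 rose 1.61-fold and 1.26-fold. Itgb8, the integrin subunit whose complex with the alpha v chain releases active TGF-beta, fell by 0.65 ± 0.13 log2 units (limma adjusted p = 0.00542), from 6.02 ± 0.28 to 5.38 ± 0.24 (SD, n = 6). Within replicates 1 to 3 Itgb8 differed by -0.50 and did not pass (limma adjusted p = 0.140).

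Co-receptors and extracellular binders split. Of 10, 3 rose and 0 fell by limma (7.01% and 8.52% of all genes), the other 7 having differences between -0.21 and 0.12, and the median was 0.02. Within replicates 4 to 6 without 0.3 g/l replicate 4, however, 4 fell (8.94% of all genes). The co-receptor Eng fell by 0.37, the type I receptor Acvrl1 by 0.53 and the proteoglycans Dcn and Aspn by 0.74 and 0.77 log2 units. Within replicates 1 to 3 Dcn instead rose by 0.36 (limma adjusted p = 0.0481). Eng, Acvrl1 and Aspn differed there by 0.05, -0.02 and 0.28 and did not pass. Aspn lay at 4.04 to 4.30 on 4.5 g/l replicates 4 to 6, close to the bound of the dimmest genes. Nrp2, a neuropilin that also binds TGF-beta, rose 2.44-fold, from a median of 5.85 to one of 7.30, with 0.3 g/l replicate 4 at 7.32, inside the range of the 4.5 g/l arrays (7.22 to 7.40). Bambi, a pseudoreceptor that blocks signalling, rose 1.92-fold, and 0.3 g/l replicate 4 lay at 7.69, inside the 4.5 g/l range of 7.34 to 7.93. The matrix proteoglycan Fmod rose 1.62-fold (limma adjusted p = 0.0447), although its highest array was 0.3 g/l replicate 4 at 10.82. In the exact permutation test adjusted over all genes 0 of the 3 passed, where 1993 of all genes did.

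Among Smads and their regulators 0 of 17 rose and 3 fell by limma (7.01% and 8.52% of all genes), with a median of -0.02. When 0.3 g/l replicate 4 was left out, 1 rose and 5 fell (10.3% and 13.6% of all genes). In the exact permutation test 0 rose and 1 fell, where 1028 and 965 of all 22180 genes did. Tgif1, a corepressor of Smad2, was 1.35-fold lower, from a median of 7.86 to one of 7.33 (limma adjusted p = 0.00783). Pmepa1, which TGF-beta induces and which limits Smad signalling, was 1.22-fold lower, from 10.53 ± 0.08 to 10.24 ± 0.13 (SD, n = 6; limma adjusted p = 0.0123), and its groups did not overlap. It differed by -0.24 within replicates 1 to 3 and by -0.34 within replicates 4 to 6 without 0.3 g/l replicate 4. Neither passed (limma adjusted p = 0.113 and 0.0968). Zfyve9, which brings Smad2 and Smad3 to the receptor, was also 1.22-fold lower (limma adjusted p = 0.0303). The transducers Smad2, Smad3 and Smad4 differed by -0.15, 0.06 and -0.05 and the inhibitory Smad7 by 0.14. With all arrays none of these passed. When 0.3 g/l replicate 4 was left out, Smad2 differed by -0.19 and Smad7 by 0.21, and both passed (limma adjusted p = 0.0204 and 0.0310). Smad3 and Smad4 differed there by 0.08 and -0.06 and did not pass.

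Of 27 measured targets of TGF-beta 7 rose and 2 fell by limma, where 7.01% and 8.52% of all genes did. The counts were 15 and 4 without 0.3 g/l replicate 4, where 10.3% and 13.6% of all genes rose and fell. The targets had a median log2 difference of 0.17 with all 12 arrays. Ccn2, connective tissue growth factor, had values of 11.47, 11.78 and 12.55 at 0.3 g/l and of 12.47, 12.58 and 12.63 at 4.5 g/l (1.63-fold higher, limma adjusted p = 0.00359), and the array at 12.55 was 0.3 g/l replicate 4. Col3a1, a fibrillar collagen chain, rose 1.76-fold and the matrix protein Tgfbi 1.47-fold. Tspan2, a tetraspanin better known from contractile smooth muscle than as a target, rose 2.45-fold without overlap of the groups. Pmepa1, also a target, and Timp3, an inhibitor of metalloproteinases, fell, Timp3 with a log2 difference of -0.59 ± 0.17 (SE; limma adjusted p = 0.0288), with 4.5 g/l replicates 1 to 3 at 11.75 to 11.90, replicates 4 to 6 at 11.09 to 11.27 and 0.3 g/l replicate 4 at 11.49. Skil, Junb and Cdkn1a differed by 0.17, 0.04 and -0.03 and did not pass. Some targets with larger differences also missed the threshold, among them Bhlhe40 (-0.73), Eln (0.59) and Nox4 (-0.55; limma adjusted p = 0.0525, 0.0764 and 0.121). Each of these passed in the same direction without 0.3 g/l replicate 4 (limma adjusted p = 0.000332, 0.000125 and 0.0190).

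In the activin branch, whose ligands share Smad2 and Smad3 with TGF-beta, 5 of 13 rose and 0 fell by limma (7.01% and 8.52% of all genes), with a median of 0.10. Inhbb, an activin subunit, ran from 6.32 to 6.87 at 0.3 g/l and from 7.03 to 7.28 at 4.5 g/l, without overlap (log2 difference 0.59 ± 0.08 SE, limma adjusted p = 0.000590). The activin-binding antagonist Fst rose 1.37-fold, its relative Fstl1 1.44-fold and the type I activin receptor Acvr1b 1.24-fold (limma adjusted p = 0.0353, 0.00472 and 0.0423). Leaving out any of the 12 arrays other than 0.3 g/l replicate 4 brought the count to 2 or 3. Without 0.3 g/l replicate 4 it was 5, with Acvr1b not passing (limma adjusted p = 0.0536). Over these 12 fits 1202 to 2288 of all genes rose, the most (10.3%) without 0.3 g/l replicate 4. In the exact permutation test adjusted over all genes 1 rose and 0 fell, where 1028 and 965 of all 22180 genes did.

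**Figure D4:**
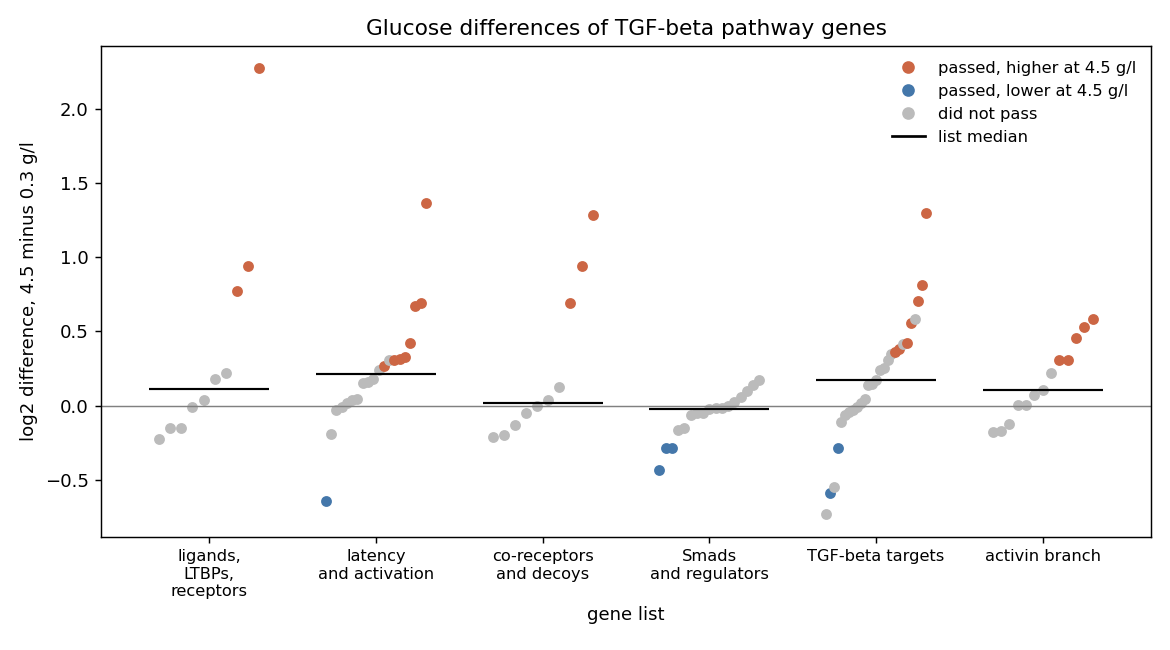
Log2 difference between 4.5 and 0.3 g/l glucose (vertical axis) of each gene in 6 lists of the TGF-beta pathway (horizontal axis, genes in order of their difference), with red for genes that passed and rose, blue for genes that passed and fell, grey for genes that did not pass and bars for list medians. Tgfb3 is the highest point at 2.28, and the medians lie between -0.02 and 0.21.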

How the data were processed

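The table deposited by the authors gives a log2 value for each probe set on each array, made with Affymetrix Expression Console and RMA per the submitters' processing notes, which means background correction, quantile normalization and summary of the probes. Versions, scan dates and genome build are not given in the sources used here. That the scale is log2 was judged from the range, 0.60 to 13.90. Of 41345 probe sets, 23521 had 1 gene symbol, 1814 several, and 16010 were unnamed in the annotation given. A gene with several probe sets was read from the one with the highest mean, which left 22180 genes.

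The comparison used limma 3.58.1 under R 4.3.3, with lmFit and eBayes, two-sided and without a block, and Benjamini-Hochberg adjustment over all genes. The fit was tested on simulated data. The labels do not say whether replicate numbers pair the samples. Correlations of same-numbered deviations ran from -0.05 to 0.17, which does not decide it. Pathway lists held 135 entries, of which 131 were matched, and are described by counts and medians. Named were the 10 genes, up to 4 genes with the smallest p per list and direction, 8 markers and the 3 genes most like each ligand, 46 in all; genes named beside them were chosen after their values were seen. Members and lists were chosen with earlier results of these data known. Figures were drawn with matplotlib 3.10.9. Arrays give no read depth, and their number limits the precision (median SE of a log2 difference 0.0931).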

Additional observations from a re-analysis of the deposited data

Results flagged for a closer look

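The gap of the highest or lowest array to its neighbour was tested in each group of 6 for the 46 named genes with Dixon's criterion at the 95% level, in 92 groups of values, of which chance flags about 1 in 20. Replicate 4 of the 0.3 g/l group was set apart in 29 of them. This count is not to be read against that rate, since the genes are not independent and the 9 genes most like the ligands were picked over arrays that include it. In the family it stood apart for Tgfb1 (8.73 against 9.20 to 9.42), Tgfb2 (11.57 against 10.63 to 10.89), Tgfb3 (10.80 against 9.24 to 9.48) and Ltbp4 (7.86 against 7.42 to 7.53), each against the other 5 arrays of the group. Other pathway genes for which it was high were Plau (8.90 against 7.79 to 7.97), Itgb3 (8.72 against 8.21 to 8.28), Nrp2 (7.32 against 5.56 to 5.88), Bambi (7.69 against 6.47 to 6.64), Fmod (10.82 against 9.41 to 9.59), Tspan2 (10.49 against 9.20 to 9.46), Ccn2 (12.55 against 11.47 to 11.87), Tgfbi (6.26 against 5.47 to 5.61), Fstl1 (11.64 against 10.85 to 11.10) and Fst (8.37 against 7.42 to 7.55). It was low for Tgif1 (7.30 against 7.81 to 7.91) and Timp3 (11.49 against 12.19 to 12.24). Among the markers it stood apart for Myh11 (8.80 against 7.03 to 7.25), Acta2 (13.62 against 12.91 to 13.14), Cdh5 (10.31 against 11.16 to 11.36), Pdgfra (7.49 against 6.90 to 7.07) and Cd68 (6.24 against 7.35 to 7.76), and among the genes most like the ligands for Ifitm3 (11.33 against 11.78 to 12.00), Qpct (7.00 against 7.98 to 8.19), Clec2d (9.63 against 10.38 to 10.63), Col12a1 (10.42 against 9.39 to 9.76), Adcy6 (8.44 against 7.89 to 8.07), Col2a1 (10.67 against 7.79 to 8.50), Dstn (11.86 against 11.27 to 11.40) and Actg2 (11.37 against 8.84 to 9.21). The remaining cases were Pmepa1 on 0.3 g/l replicate 2 (10.69 against 10.45 to 10.54), Pmepa1 on 4.5 g/l replicate 6 (10.00 against 10.22 to 10.35) and Zfyve9 on 4.5 g/l replicate 5 (7.31 against 7.11 to 7.18).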

How the results depend on the processing

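Over 26 alternatives each, Tgfb3 and Ltbp1 passed in 25 and Ltbp2 in 24, always higher at 4.5 g/l (log2 differences of 2.18 to 2.65, 0.70 to 1.08 and 0.84 to 1.29), and Tgfbr1 and Tgfbr2 passed in 0. Leaving out 1 array at a time gave 3 to 5 genes of the family higher and 0 to 1 lower, 2514 to 5295 genes called overall (5295 without 0.3 g/l replicate 4, against 3444) and 7 to 9 of the 12 pairs past the threshold. Array weights gave 5419 genes and 5 of the family higher (Tgfb2 and Ltbp3 added), the exact permutation test 1993 genes, and replicates 4 to 6 alone 30 genes and 0 of the family, which without 0.3 g/l replicate 4 became 3435 genes with 4 higher (Tgfb2 added) and 1 lower (Tgfb1). Sign changes touched only differences that did not pass. Ltbp4 was 0.0218 after quantile normalization, 0.022 after cyclic loess, 0.0536 with array weights, 0.12 within replicates 1 to 3 and -0.0458 to 0.0551 with arrays left out. Tgfbr3 was -0.17 within replicates 4 to 6, -0.31 when 0.3 g/l replicate 4 was also left out, and -0.0256 to 0.11 with arrays left out. The pair Tgfbr1 and Tgfbr2 gave -0.0825 to 0.0865 with arrays left out, and Tgfbr2 minus Tgfbr3 passed after quantile normalization (-0.21) and without 4.5 g/l replicate 5 (-0.24). As reported, 1555 of all 22180 genes rose and 1889 fell, and with array weights 2347 and 3072 did. In the permutation test 1028 and 965 did, and with the replicate block 1419 and 1711. Replicates 4 to 6 gave 0.0947% and 0.0406% of all genes, and 6.55% and 8.94% without 0.3 g/l replicate 4. List counts moved for targets, with 7 higher and 2 lower, against 15 and 4 with array weights. They were 13 and 3 in replicates 4 to 6 without 0.3 g/l replicate 4, 2 and 1 in the permutation test and 0 in replicates 4 to 6. The activin count of 5 was 2 when every probe set was tested, where 1675 were called higher in all. The Smad count of 3 lower was 5 with array weights and 1 in the permutation test. The co-receptor count of 0 lower was 4 in replicates 4 to 6 without 0.3 g/l replicate 4. With the replicate number as a block (replicate block), 3130 genes passed, 3 of the family higher and 0 lower, and 4 targets fell and 3 activin genes rose; the numbers are not known to pair the samples (same-numbered deviations correlated from -0.05 to 0.17). The cause of these shifts was not tested.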
